A study of Homo sapiens with 6 samples.

Results

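Transcripts of the hypoxia pathway were examined in CL1-0 and CL1-5, a pair of human lung adenocarcinoma cell lines that both descend from the parental line CL1. The members were 10 genes taken by name, the hypoxia-inducible factor subunits HIF1A and EPAS1, the oxygen-sensing hydroxylases EGLN1 and EGLN3, and the target genes NDRG1, ADM, CA9, CA12, BNIP3 and ANGPTL4. They were found by symbol, through every probe set that the platform annotation gives to that gene alone. This found 23 probe sets for 9 of the 10 genes, out of 19775 named genes and 54675 probe sets in all. No probe set was matched to CA9, which was not analysed here. Both lines were grown in RPMI with 10% fetal bovine serum and 1% penicillin and streptomycin at 37 °C and 5% CO2. The labels name no treatment by low oxygen and give no oxygen level. CL1-0 is labelled poorly invasive and CL1-5 highly invasive, each line was measured as 3 biological repeats, and the same medium was used for all. Total RNA was hybridised to Affymetrix arrays, 1 array per repeat. A signal is the brightness of a probe set on a linear scale as deposited, and probe sets differ in how strongly they bind, so no gene's level is set against another's. Within a gene, brighter and dimmer describe probe sets, not transcripts.

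Cells sense oxygen through hydroxylation of the HIF alpha subunits. The EGLN enzymes use oxygen to hydroxylate HIF-1 alpha (HIF1A) and HIF-2 alpha (EPAS1), the VHL ubiquitin ligase then marks the hydroxylated protein for destruction, and when oxygen is short the stable alpha subunit pairs with ARNT and binds hypoxia response elements near its target genes. This control acts on the protein, which arrays of RNA do not measure. The targets serve supply and survival under low oxygen, among them glucose uptake, glycolysis, pH control, vessel growth and mitophagy, and EGLN3 and, less strongly, EGLN1 are themselves known targets.

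The core of the hypoxia response element is written here as its pair of spellings, ACGTG and GCGTG, and both were searched on both strands of the RefSeq promoter windows (GRCh38.p14), which run from 250 bases before to 50 bases after a transcript start. The table was matched to 10 windows for 9 of the genes, all but NDRG1. Of these windows 4 held ACGTG and 5 held GCGTG. Over all 35116 windows of that length 21.4% held ACGTG and 36.5% held GCGTG. The 4 windows below belong to a factor, a hydroxylase and a pair of targets whose signals are described next, and capitals mark every match to either spelling, which on the opposite strand read CACGT and CACGC. The EPAS1 window lies at chr2:46297157-46297456 on the plus strand, EGLN1 at chr1:231422238-231422537 on the minus strand, BNIP3 at chr10:131981874-131982173 on the minus strand and ANGPTL4 at chr19:8363905-8364204 on the plus strand.
EPAS1: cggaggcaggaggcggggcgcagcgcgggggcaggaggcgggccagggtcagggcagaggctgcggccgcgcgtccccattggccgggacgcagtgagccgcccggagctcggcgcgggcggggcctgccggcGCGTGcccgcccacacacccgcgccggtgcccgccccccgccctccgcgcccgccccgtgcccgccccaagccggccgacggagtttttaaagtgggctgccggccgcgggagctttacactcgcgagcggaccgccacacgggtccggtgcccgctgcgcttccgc
EGLN1: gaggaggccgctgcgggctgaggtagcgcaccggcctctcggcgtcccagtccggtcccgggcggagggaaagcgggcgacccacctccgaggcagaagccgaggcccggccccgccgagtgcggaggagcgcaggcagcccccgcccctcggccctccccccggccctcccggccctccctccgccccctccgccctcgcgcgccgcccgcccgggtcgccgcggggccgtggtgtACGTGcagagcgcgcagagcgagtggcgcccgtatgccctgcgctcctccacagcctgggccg
BNIP3: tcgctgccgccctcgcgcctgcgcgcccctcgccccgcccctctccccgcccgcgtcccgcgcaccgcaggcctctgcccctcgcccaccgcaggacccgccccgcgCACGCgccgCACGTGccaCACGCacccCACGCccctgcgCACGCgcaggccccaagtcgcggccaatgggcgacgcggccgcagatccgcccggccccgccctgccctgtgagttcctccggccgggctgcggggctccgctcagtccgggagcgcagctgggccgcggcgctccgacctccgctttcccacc
ANGPTL4: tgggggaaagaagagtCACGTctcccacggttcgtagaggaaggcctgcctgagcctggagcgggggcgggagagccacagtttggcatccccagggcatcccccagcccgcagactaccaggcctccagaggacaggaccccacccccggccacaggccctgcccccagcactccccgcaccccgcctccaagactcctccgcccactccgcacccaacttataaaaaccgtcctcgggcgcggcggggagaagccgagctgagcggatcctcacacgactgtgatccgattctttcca

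BNIP3 had the most matches. Its ACGTG lay at -133 to -129, counted from the transcript start, inside the palindrome CACGTG, so that its match on the opposite strand at -134 to -130 is largely the same bases, and 4 copies of GCGTG on the opposite strand lay within -143 to -100. The EGLN1 match lay at -13 to -9, close to the start, and the ANGPTL4 match at -234 to -230 on the opposite strand. The EPAS1 window held GCGTG at -117 to -113, HIF1A at -204 to -200 in the first of its 2 windows and ADM at -101 to -97. The CA12 window held GCGTG on the opposite strand at -234 to -230 and at 40 to 44. In CA9, whose signal was not analysed here, ACGTG lay at -18 to -14 on the opposite strand. The EGLN3 window held neither spelling. These are matches of letters in a short window, in which GC-rich sequence (80.0% in EPAS1 and EGLN1, 80.7% in BNIP3, against a median of 58.7% over all windows) also bears on how often such letters occur.

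Of the 9 genes tested, 7 were higher in CL1-5 and 0 were lower. The genes that rose were EPAS1, NDRG1, ADM, HIF1A, EGLN3, BNIP3 and ANGPTL4, while EGLN1 and CA12 did not pass. The test was limma's moderated test on log2(signal + 6.85) with Benjamini-Hochberg adjustment over 14828 genes, each through 1 probe set, at an adjusted p under 0.05. A gene was tested where a probe set exceeded the 40th percentile of its array, a stand-in for background, on at least 3 of the 6 arrays. Differences between these lines are common: 51.7% of all genes tested passed, 23.3% as higher in CL1-5 and 28.4% as lower. The median log2 fold change of the members was 1.60, against -0.03 over all genes tested. In 8 of the 9 genes every CL1-5 array lay above every CL1-0 array, which held for 26.7% of all genes tested. Log2 fold changes are CL1-5 over CL1-0 with n = 3 arrays per line, and the added constant makes them smaller than the true change where signals are dim.

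**Figure D1:**
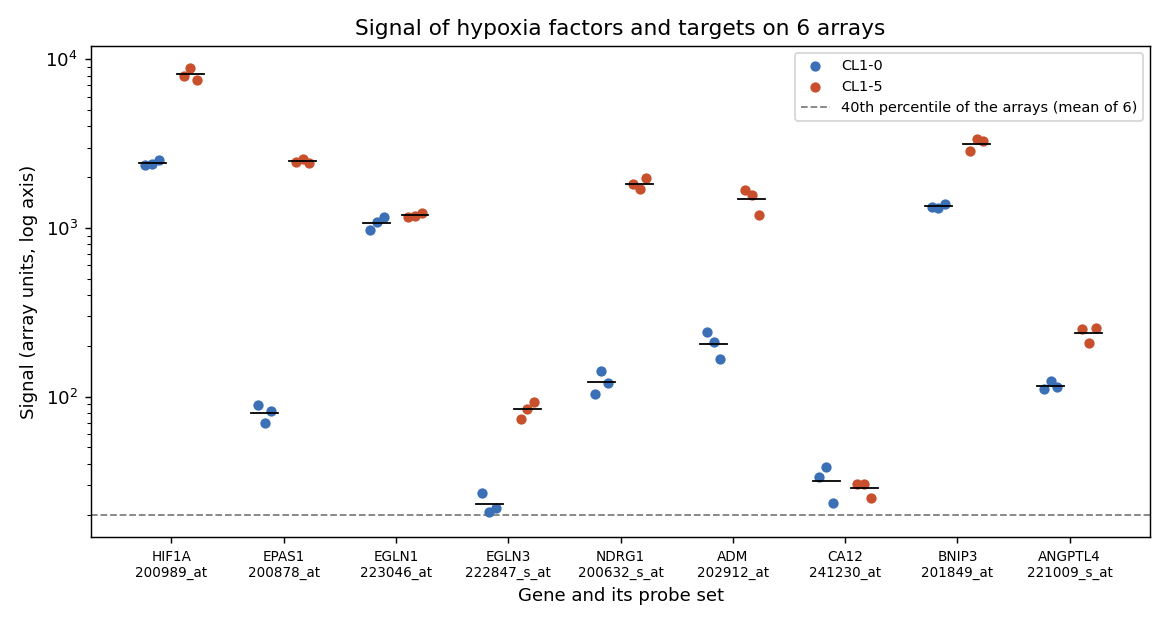
Signal of the probe set that represents each of the 9 genes on every array (log axis, array units), CL1-0 in blue and CL1-5 in red, with black lines at the means and a dashed line at the mean 40th percentile of the arrays. The lines part widely for EPAS1 (80.5 against 2484 on average) and NDRG1 (122 against 1833), lie close for EGLN1 (1072 against 1189) and overlap for CA12.

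Among all probe sets of the members, 18 of 23 passed the filter. Of those 18, 13 were higher in CL1-5 and 0 were lower when every named probe set that passed was tested (28152 in all). Of the 13, 2 (200879_s_at for EPAS1 and 219232_s_at for EGLN3) passed the filter through CL1-5 alone, so they had to differ. Among the 15 above the percentile on all 6 arrays, 11 were higher and 0 lower, and in 12 the CL1-5 arrays all lay above the CL1-0 arrays. Over all 28152 probe sets of the fit 46.9% passed the test, 21.2% as higher and 25.6% as lower. No share was taken over the probe sets above the percentile on all 6 arrays, so the 15 have no like share beside them. In 14 of the 18 all CL1-5 arrays lay above all CL1-0 arrays, against 25.3% of the probe sets tested. The 5 probe sets that failed the filter were 4 for CA12 and 1 for EPAS1. The 13 that rose cover 8 genes, because EGLN1, whose brightest probe set did not pass, has a pair of dimmer ones that did.

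**Figure D2:**
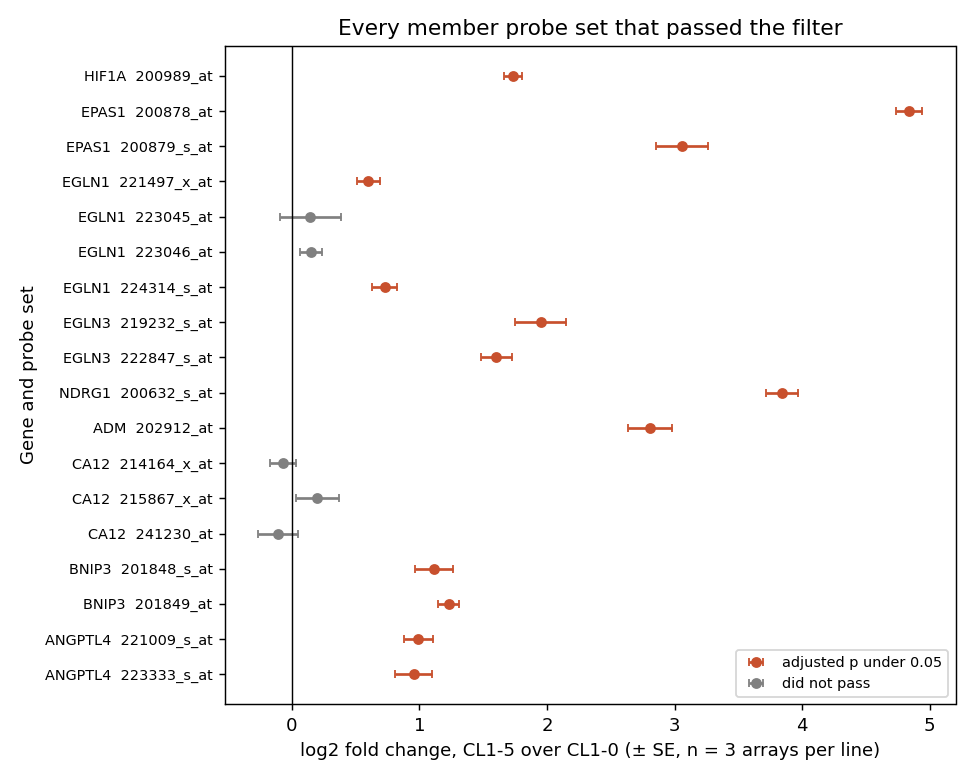
Log2 fold change of CL1-5 over CL1-0 with its SE (n = 3 arrays per line) for the 18 member probe sets that passed the filter, in red where the adjusted p was under 0.05 and in grey otherwise. The values run from 4.84 for EPAS1 probe set 200878_at to -0.11 for CA12 probe set 241230_at, and the 3 CA12 probe sets and 2 of the 4 for EGLN1 lie close to 0.

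The factors themselves differed. HIF1A, the broadly expressed alpha subunit, gave 2367, 2411 and 2543 signal units on the CL1-0 arrays and 7992, 8850 and 7590 on the CL1-5 arrays. Every CL1-5 array was bright, and the closest pair of arrays across the lines still differed by 2.98-fold. The log2 fold change was 1.73 (SE 0.07, adjusted p = 1.7e-07), from a mean of 2440 ± 92.0 (SD) to 8144 ± 643. RefSeq lists a HIF1A pseudogene, so a part of this single probe set's signal could come from a near copy, which was not tested.

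EPAS1, which encodes HIF-2 alpha, the subunit known for its role in endothelium and lung, showed the widest gap among the members. Probe set 200878_at gave 89.6, 70.1 and 81.9 units in CL1-0 and 2447, 2562 and 2442 in CL1-5, with no overlap and little spread in either line. The log2 fold change was 4.84 (SE 0.10, adjusted p = 2.3e-09), or 30.8-fold between the mean signals. The dimmer probe set 200879_s_at gave 13.2, 13.3 and 10.0 in CL1-0, all under the 40th percentile of their arrays (19.5 to 20.3), and 191, 169 and 106 in CL1-5. It was at least 7.56-fold higher in CL1-5, taking the percentile of each CL1-0 array in place of its signal. It passed the filter through CL1-5 alone, so this is a description. The probe set 241055_at stayed between 5.51 and 6.71 units on all 6 arrays and was not tested.

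The oxygen sensors gave unlike pictures. EGLN3, also called PHD3, rose. Its probe set 222847_s_at gave 26.7, 20.6 and 21.8 in CL1-0, just above the 40th percentile, and 73.9, 84.5 and 93.6 in CL1-5. The lines did not overlap, and the log2 fold change was 1.60 (SE 0.12, adjusted p = 6.5e-06). Probe set 219232_s_at lay under the percentile on all CL1-0 arrays, at 15.1, 12.4 and 12.0, against 49.7, 74.8 and 93.0 in CL1-5, at least 3.52-fold higher. It too passed the filter through CL1-5 alone.

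EGLN1, also called PHD2, the main HIF hydroxylase in most cells, depended on the probe set. The brightest, 223046_at, which represents the gene, gave 979, 1084 and 1155 in CL1-0 and 1157, 1175 and 1235 in CL1-5. The CL1-5 arrays were all higher, but only just, and the log2 fold change of 0.15 (95% confidence interval -0.04 to 0.34) did not pass (adjusted p = 0.17). With repeat numbers entered as a block, that value of 0.15 (SE 0.05) passed at an adjusted p of 0.026. Probe set 224314_s_at rose from 148, 143 and 148 units to 224, 255 and 264 (log2 fold change 0.73, SE 0.10, adjusted p = 5.4e-04). Probe set 221497_x_at, of the kind marked as prone to cross-hybridise, rose from 323, 330 and 312 to 446, 506 and 526 (0.60, SE 0.09, adjusted p = 0.0011). The dim 223045_at gave 28.4, 30.8 and 16.9 in CL1-0 and 36.4, 32.3 and 18.4 in CL1-5, overlapped between the lines and did not pass (adjusted p = 0.67).

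The disagreement among EGLN1 probe sets was set against the spread between arrays. The log2 change of 223046_at minus that of 224314_s_at was -0.58, and that of 221497_x_at minus 223046_at was 0.45. Each had an exact two-sided permutation p of 0.1, the smallest that 3 against 3 arrays allow, and 0.33 after Benjamini-Hochberg adjustment over the 13 pairs of probe sets compared within member genes. The change of 221497_x_at minus that of 224314_s_at, which both rose, was only -0.13 and had the same permutation p of 0.1. This p therefore does not tell the unlike pairs from the like one. With all 4 probe sets averaged, EGLN1 was called higher (0.41, SE 0.08, adjusted p = 0.0027). RefSeq also lists an EGLN1 pseudogene, whose part in these signals was not tested.

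**Figure D3:**
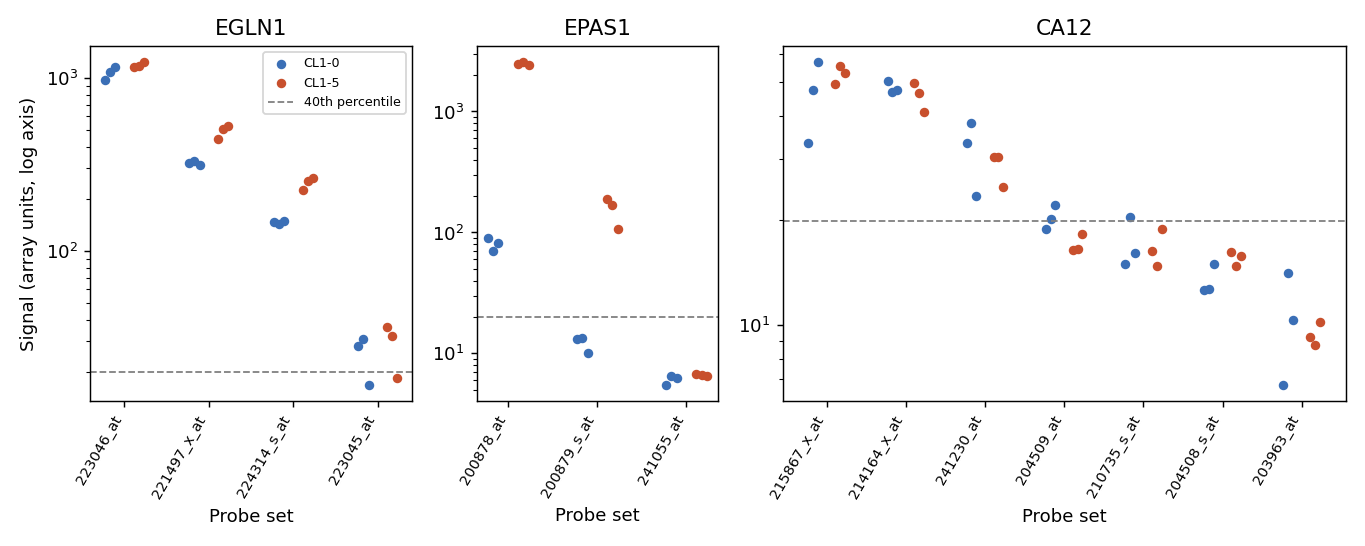
Signal of every probe set of EGLN1, EPAS1 and CA12 on the 6 arrays (log axes, array units), CL1-0 in blue and CL1-5 in red, with the mean 40th percentile of the arrays dashed. For EGLN1 the lines part in 221497_x_at and 224314_s_at, lie close in 223046_at and overlap in 223045_at; 4 of the 7 CA12 probe sets lie mostly under the dashed line.

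Among the targets, NDRG1, a stress-responsive gene linked to differentiation and to the control of metastasis, rose most. Its single probe set gave 104, 142 and 120 units in CL1-0 and 1820, 1695 and 1983 in CL1-5. The lowest CL1-5 array was 11.9-fold above the highest CL1-0 array. The log2 fold change was 3.84 (SE 0.12, adjusted p = 2.4e-08), or 15.0-fold between the mean signals.

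ADM, which encodes the vasodilator peptide adrenomedullin, gave 242, 211 and 166 units in CL1-0 and 1676, 1580 and 1202 in CL1-5. Repeat 3 was the lowest array in both lines, and the lines did not overlap. The log2 fold change was 2.81 (SE 0.16, adjusted p = 1.2e-06), 7.19-fold between the means.

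BNIP3, a mitochondrial receptor for mitophagy and a regulator of cell death, rose by similar amounts in both probe sets. Probe set 201849_at gave 1330, 1309 and 1388 in CL1-0 and 2844, 3347 and 3292 in CL1-5 (log2 fold change 1.23, SE 0.08, adjusted p = 2.9e-06). Probe set 201848_s_at gave 541, 499 and 379 in CL1-0 and 1153, 1023 and 902 in CL1-5 (1.12, SE 0.15, adjusted p = 5.5e-04). Both parted the lines, and the difference between their changes, -0.11, had an exact permutation p of 0.7. BNIP3 has many pseudogenes in RefSeq, so the origin of the signal is less certain than for single-copy genes.

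ANGPTL4, a secreted inhibitor of lipoprotein lipase that is also a HIF target, showed the smallest change among the genes that passed. Probe set 221009_s_at gave 110, 124 and 114 units in CL1-0 and 252, 208 and 255 in CL1-5, a log2 fold change of 0.99 (SE 0.11, adjusted p = 8.0e-05). Probe set 223333_s_at gave 82.3, 84.9 and 61.9 in CL1-0 and 159, 167 and 135 in CL1-5, a change of 0.96 (SE 0.15, adjusted p = 0.0010). The lines were apart in both, by about 2.05-fold and 2.01-fold between the means.

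CA12, a membrane carbonic anhydrase that serves pH control outside the cell, was dim in both lines through all 7 of its probe sets. None of its signals exceeded 57.0 units. Probe set 241230_at, which represents the gene, gave 33.4, 38.1 and 23.5 in CL1-0 and 30.4, 30.4 and 25.0 in CL1-5. Its log2 fold change was -0.11 (95% confidence interval -0.45 to 0.24, adjusted p = 0.60). The probe sets 214164_x_at (-0.07, adjusted p = 0.64) and 215867_x_at (0.20, adjusted p = 0.38) overlapped between the lines too. The other 4 probe sets failed the filter, with at most 1 array above the percentile. In 204509_at, untested for that reason, the CL1-0 arrays (18.9, 20.1 and 22.1) all lay above the CL1-5 arrays (16.4, 16.5 and 18.3). A change in a transcript near background would be hard to see at such signals, so the data bound the CA12 difference only at the sensitivity of these probe sets.

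Arrays with the same repeat number gave similar differences. Within repeats 1, 2 and 3 the log2 difference of CL1-5 from CL1-0 was 4.67, 5.06 and 4.79 for EPAS1, 4.04, 3.52 and 3.97 for NDRG1, and 1.75, 1.87 and 1.57 for HIF1A. EGLN3 gave 1.27, 1.73 and 1.81. CA12 gave -0.12, -0.27 and 0.07, so its sign was not the same in every repeat. The other genes kept a positive difference in each repeat. Across arrays, signs of RNA quality moved with the repeat: the log2 ratio of 3′ to 5′ signal for ACTB was 1.17 and 0.91 on the repeat 3 arrays of CL1-0 and CL1-5 and between 0.31 and 0.53 on the other 4. It was lower in CL1-5 than in CL1-0 within every repeat number. Its part in the results was not tested. With repeats 1 and 2 alone, 7 member genes were higher and 0 lower. The share called over all genes was not counted for that fit.

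**Figure D4:**
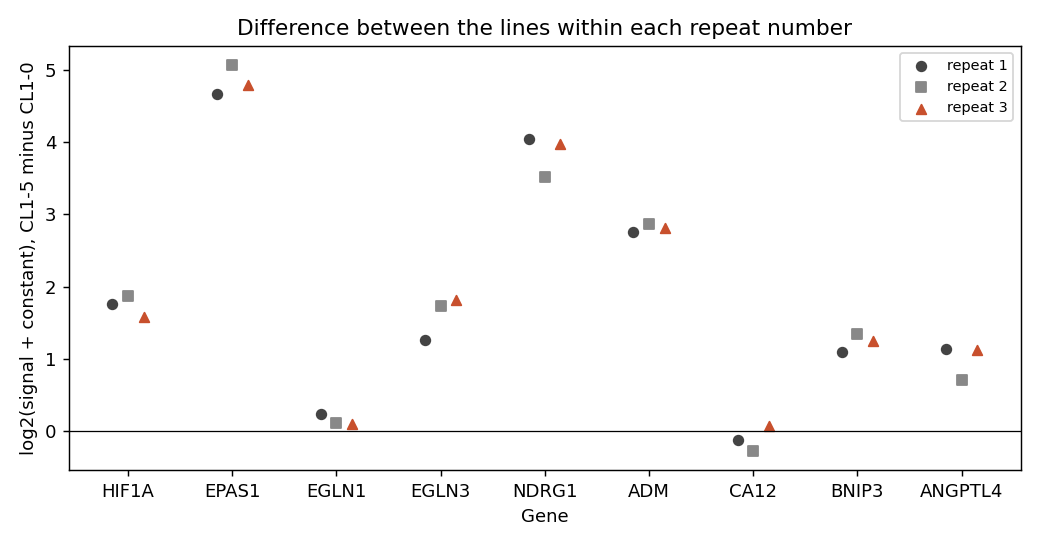
Difference between the lines, log2(signal + 6.85) of CL1-5 minus CL1-0, within each repeat number (circles, squares and triangles for repeats 1, 2 and 3) for the probe set that represents each gene. The 3 points of a gene lie close together beside the spread between genes, and for 8 of the 9 genes all 3 lie above 0.

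The rest of the pathway was read from lists of other genes. In the machinery that controls the HIF subunits 4 of 19 tested genes (21.1%) were higher, 6 (31.6%) lower and 9 did not pass. These shares are close to the 23.3% higher and 28.4% lower over all genes tested. The median log2 fold change of the machinery was 0.01. P4HTM, a transmembrane prolyl hydroxylase, fell from 138, 149 and 184 units to 23.4, 22.6 and 18.5 (log2 fold change -2.52, SE 0.13). Only 2 of its CL1-5 signals exceeded the 40th percentile, so the size of the fall is limited by background. ARNT2, an alternative partner of the alpha subunits, rose by 1.22 (SE 0.21) and the scaffold LIMD1, which links the hydroxylases to VHL, by 0.93 (SE 0.17). ARNT itself was lower (log2 fold change -0.58, SE 0.10), in 2 of its 5 tested probe sets, and so was VHL (-0.63, SE 0.17). CITED2, which competes with the HIF subunits for their coactivators, fell by 0.85 (SE 0.17), or by 0.52 (SE 0.08) with its 3 probe sets averaged.

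Other hypoxia-induced genes were mostly higher in CL1-5. Of 31 tested, 23 (74.2%) were higher and 3 (9.7%) lower, with a median of 0.87. RORA and PPFIA4, among the 23, passed the filter through CL1-5 alone, so they had to differ. Over all genes tested 23.3% were higher and 28.4% lower, with a median of -0.03. LOX, which cross-links collagen, went from 67.3, 42.9 and 48.1 units in CL1-0 to 1223, 1102 and 1054 in CL1-5 (log2 fold change 4.27, SE 0.15). The nuclear receptor RORA, through 1 of its 8 probe sets, was under the 40th percentile on all CL1-0 arrays and at least 9.98-fold higher in CL1-5, the line through which it passed the filter. With its 5 passing probe sets averaged, the log2 change was 2.26 (SE 0.09), against 3.26 (SE 0.09) for that probe set. IGFBP3, a binding protein of insulin-like growth factors, rose from 16.6, 22.7 and 18.2 units, of which 1 was above the percentile, to 225, 168 and 172. The glucose transporter SLC2A3 went the other way, from 4603 ± 219 to 406 ± 35.9, in 3 of 3 probe sets.

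The list of glycolytic enzymes under HIF control also holds PDK1 and PDK3, pyruvate dehydrogenase kinases that are not enzymes of glycolysis itself. Of its 18 tested genes 15 (83.3%) were higher and 1 (5.6%) lower, with a median of 1.01. PDK1 was among the 15. The 1 lower was PDK3 (-0.59, SE 0.13), of whose 5 tested probe sets 1 was higher and 1 lower. The shares over all genes tested were 23.3% higher and 28.4% lower. ENO2, the neuronal enolase, went from 19.3, 12.2 and 20.3 units, of which 1 of 3 was above the percentile, to 493, 640 and 894. PFKFB4 (2.82, SE 0.09) and PFKFB3 (1.96, SE 0.09), which set the level of the phosphofructokinase activator, and hexokinase HK2 (2.79, SE 0.14) also rose. For HK2 only 1 of its 3 tested probe sets passed, and with the 3 averaged its change was 0.83 (SE 0.08). Over these 3 lists together 42 of 68 tested genes (61.8%) were higher, RORA and PPFIA4 among them, and 10 (14.7%) lower. With repeat numbers entered as a block 47 were higher and 13 lower. The share called over all genes was not counted for the fit with the block. The pathway lists and the members were chosen with earlier results of these data known, so their direction is a description.

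**Figure D5:**
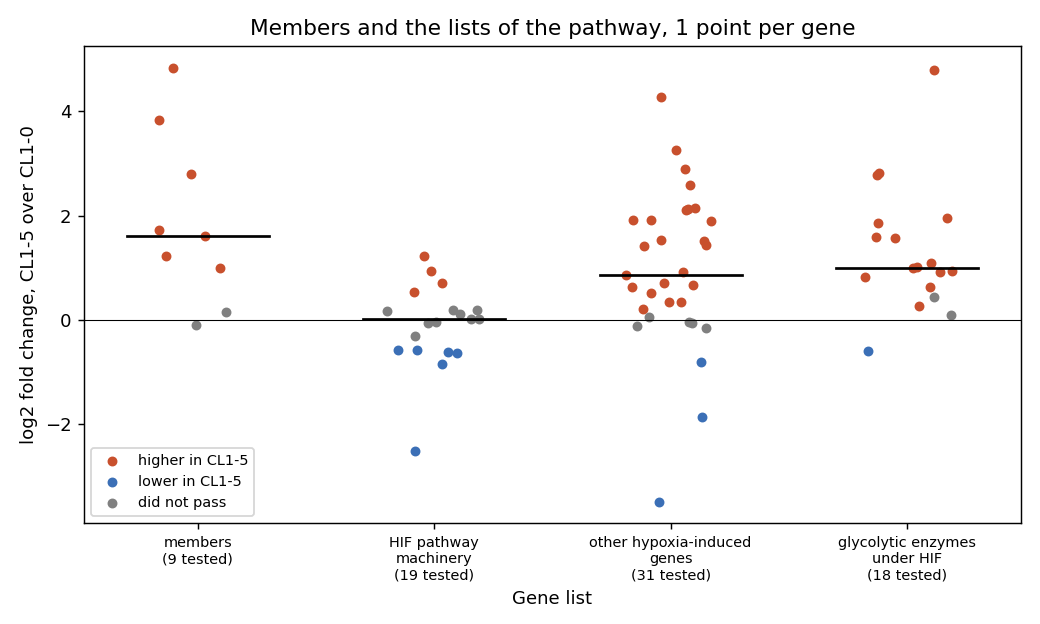
Log2 fold change of CL1-5 over CL1-0 for each tested gene of the members and of 3 pathway lists, 1 point per gene, red where higher, blue where lower and grey where the adjusted p was not under 0.05, with black lines at the medians. The medians are 1.60 for the members, 0.01 for the machinery and 0.87 for the other hypoxia-induced genes. For the list of glycolytic enzymes, which also holds PDK1 and PDK3, the median is 1.01.

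Relatives and partners of the members were read the same way. Of the carbonic anhydrases other than the members, 0 of 7 tested were higher and 2 (28.6%) lower, a share close to the 28.4% lower over all genes. CA11, a relative without catalytic activity, fell from 197 ± 2.24 (SD) to 25.6 ± 4.70 units. Its CL1-5 signals lay near the 40th percentile, with repeat 1 at 20.152 against 20.146, so background limits the size of the fall. CA13 fell by 0.34 (SE 0.09), a call that was lost when passing probe sets were averaged (adjusted p = 0.13). In the NDRG family NDRG3 fell by 1.37 (SE 0.09) in 3 of 3 probe sets and NDRG2 by 0.79 (SE 0.12), and NDRG4 did not pass. CALCRL, which forms the adrenomedullin receptor, gave 118, 111 and 36.7 units in CL1-0 and stayed under the percentile in CL1-5, at least 3.93-fold lower. It passed the filter through CL1-0 alone. Its partners RAMP1, RAMP2 and RAMP3 did not pass, at values of -0.06, 0.05 and 0.08.

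Mitophagy genes moved both ways, with 3 of 7 tested (42.9%) higher and 3 (42.9%) lower, against 23.3% and 28.4% over all genes tested. BNIP3L, the close relative of BNIP3, rose by 0.62 (SE 0.08) in 2 of 2 probe sets and SQSTM1 by 0.44 (SE 0.08). The kinase PINK1 fell by 0.70 (SE 0.10) and PHB2, a receptor of the inner membrane, by 0.50 (SE 0.06). Of the acid and bicarbonate transporters 2 were tested. The anion exchanger SLC4A2 was lower by a log2 fold change of -0.49 (SE 0.18, adjusted p = 0.044), with overlapping lines, and lost its call when 1 array was left out, be it CL1-0 repeat 2 (adjusted p = 0.115), CL1-0 repeat 3 (0.113), CL1-5 repeat 1 (0.145) or CL1-5 repeat 2 (0.142). Of the angiopoietin-like relatives of ANGPTL4 the 2 tested did not pass.

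Markers of the labelled tissue and of other cell types were read from the same arrays. Of the lung lineage markers 4 were tested and 0 passed, NKX2-1 at 26.9 and 25.0 units on average in CL1-0 and CL1-5 and SFTPC at 99.0 and 92.6. Of the simple epithelial markers KRT8 and KRT18 were bright in CL1-5 alone (555 and 4222 units, against 49.4 and 46.5 in CL1-0). EPCAM averaged 29.3 units in CL1-0 and 10.3 in CL1-5, where all arrays were under the percentile. CDH1 did not pass. KRT7 did not pass through the probe set that represents it, though 1 of its 2 tested probe sets was higher. KRT19 was not tested, and its brightest probe set lay under the percentile on all 6 arrays. The probe sets of KRT8 and KRT18 are marked as prone to cross-hybridise. The leukocyte marker PTPRC and the endothelial markers CDH5 and EMCN lay under the percentile on all 6 arrays. The leukocyte marker CD3E, at 24.6 units on average in CL1-0 and 23.7 in CL1-5, was above it on all 6 and did not pass the test. The endothelial marker VWF, at 21.0 and 22.3 units, was tested and did not pass either. PECAM1 rose from 49.8 to 115 units, and the fibroblast markers tested (3) did not pass. Arrays had medians of 30.2 to 30.9 units and had correlations over genes of 0.989 to 0.996 for arrays of the same line and 0.853 to 0.863 for arrays of unlike lines, a measure in which genes are not independent replicates.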

How the data were processed

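The authors deposited 1 linear intensity per probe set and array. MAS5 is the tool named in the submitters' processing notes, while the sources used here state neither its version nor what followed it. No detection call was used. Groups and repeat numbers come from the sample titles. The labels call the repeats biological. The limma p-values rest on the spread among 3 per line, moderated towards a variance trend over all genes.

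Names came from the platform annotation, with current symbols matched by gene identifier in RefSeq (41037 of 41091 probe sets with 1 gene). Signals became log2(signal + 6.85), where the constant is the 10th percentile over all arrays. A gene was represented by its passing probe set with the highest mean signal, without the cross-hybridising kind where another passed. Tests used limma 3.58.1 in R 4.3.3 (lmFit, then eBayes with trend) over all genes, and again over all named probe sets. A bound divides the bright line's geometric mean by that of the higher of percentile and signal.

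The 10 members and the lists were chosen with earlier results of these data known. Named genes were all members and up to 4 called genes with the largest change per list. Outside that rule ARNT, VHL, PPFIA4, PDK1 and PDK3 were named too. In simulated data for the CL1-5 against CL1-0 contrast 200 of 14828 genes carried a change. There 34% of log2 changes of 0.5 were recovered, 92% of 1, and 100% of 2 and of 4, with 9 false calls. Far fewer genes changed there than the 51.7% called in the data, and noise was drawn independently for each array. These rates are therefore not the sensitivity of the reported fit. Same-numbered arrays deviated together from their line means (correlations over genes of 0.480, 0.293 and 0.656 for repeats 1, 2 and 3), though the labels do not say what a number marks. The main fit had no block. Alternatives were the constant, the filter, the scaling, the variance trend, array weights, the probe set of a gene, the repeat number as a block, a stricter threshold and fewer arrays.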

Additional observations from a re-analysis of the deposited data

How the results depend on the processing

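With array weights 1 member gene was lower in CL1-5, against 0 otherwise. This was CA12 at -0.22 (adjusted p = 0.037), a call made under no other setting. EGLN1 was called higher with array weights (0.13, adjusted p = 0.032), with the repeat number as a replicate block (0.15, adjusted p = 0.026) and with passing probe sets averaged (0.41, adjusted p = 0.0027), so that 8 member genes rose there. The other 7 members were higher under all 18 alternatives, leaving out each array included. The lowest values were 3.95 for EPAS1, 3.60 for NDRG1, 2.66 for ADM, 1.67 for HIF1A, 1.17 for BNIP3, 1.07 for EGLN3 and 0.77 for ANGPTL4. With repeats 1 and 2 alone, or without any 1 of the CL1-5 arrays, 11 member probe sets were higher in place of 13. Dim EPAS1 and EGLN3 probe sets then fail the filter on 3 arrays. The call of SLC4A2 was lost with quantile normalization (-0.48, adjusted p = 0.058). The block changed no other member call, but over the 3 pathway lists it called 47 genes higher and 13 lower, against 42 and 10. Calls over all genes were counted for the main fit alone, so whether this rise is particular to the lists was not examined. The member counts under the alternatives likewise have no share over all genes beside them. Signals near the 40th percentile limit CA12, EGLN3 and the dim probe sets.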
